A study of Mus musculus with 10 samples.

Results

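The SR proteins and the heterogeneous nuclear ribonucleoproteins (hnRNPs) were followed here in epithelial cells sorted from mouse pancreatic tumours. The members were the protein-coding genes whose symbol starts with Srsf or Hnrnp, pseudogenes left out. They numbered 31 of the 51707 genes in the files, 11 of them Srsf and 20 Hnrnp, with 282 annotated transcripts. The rule used symbols and no measured value. The libraries, 10 in all, were RNA-seq of epithelial cells recovered by flow sorting from pancreatic ductal adenocarcinomas. The tumours grew from T6-LOH KPC organoids placed in the pancreas of NSG mice with a partner line of pancreatic stellate cells (PSCs), which give rise to fibroblasts of the pancreas. NSG mice lack mature T, B and NK cells. The strain label read C57BL/6J. In 5 libraries the PSC partner was the line PSC4 ROSA (egfr), read here as the Egfr wild-type control (Egfr WT PSC, n = 5). In 5 it was the line PSC4 EGFR KO B4, read here as an Egfr knockout line (Egfr KO PSC, n = 5). The comparison asked how the epithelial cells, which were not themselves edited, differed between tumours with these partner lines. Each group used a single line, so loss of Egfr cannot be told apart from any other difference between the lines.

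SR proteins carry RNA recognition motifs and a tail rich in arginine and serine. They bind exons and help the early spliceosome recognise the flanking splice sites, and several of them also carry finished messages out of the nucleus. The hnRNPs coat nascent transcripts through RNA recognition, KH or glycine-rich domains and often act in the opposite sense, masking splice sites or exons. Many genes of both families control their own level through their own transcripts: a surplus of the protein favours a "poison" exon with an early stop codon, or a retained intron, and the resulting RNA is degraded by nonsense-mediated decay (NMD) or held in the nucleus. For that reason the transcript classes are given beside the gene sums.

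Each library held between 40203493 and 54758648 estimated counts. Gene values are given as CPM, the summed estimated counts of a gene scaled to the TMM-normalized library size, which serve the comparison of libraries. Levels of different genes or transcripts are set side by side only as TPM, which also account for transcript length. Libraries are listed in the order replicate 1 to 5 of each group throughout, and the numbers only name libraries. Whether every library stems from a separate mouse is not given in the labels, so the p-values speak only for the variation among the 10 libraries, which may be partly technical. Epithelial markers were high in all of them: the 10 markers of that list summed to 18465 to 20146 CPM with Egfr WT PSC and 15713 to 27641 CPM with Egfr KO PSC. RNA of other cells was also present. The 12 fibroblast and stellate markers summed to 379.7 to 974 and 352 to 1272 CPM, and the 12 macrophage and myeloid markers to 275 to 468 and 224 to 337 CPM. Endothelial markers summed to 22.8 to 35.4 and 9.53 to 48.2 CPM, acinar markers to 86.1 to 271 and 59.9 to 229 CPM, erythroid markers to 6.50 to 42.4 and 0.905 to 3.55 CPM, neutrophil markers to at most 5.70 CPM and lymphocyte markers to at most 0.578 CPM. In such bulk samples fewer cells of a type and less RNA per cell cannot be told apart. The knockout was made in the stellate cells, so Egfr in the sorted epithelium does not check it; Egfr read 58.5 ± 16.2 CPM with Egfr WT PSC and 63.4 ± 9.12 CPM with Egfr KO PSC (SD, n = 5 each).

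Both families were expressed over a wide range. Hnrnpk, a KH-domain protein that binds C-rich RNA, was the most abundant member at 1222 TPM (mean of 10 libraries, range 1047 to 1423) and ranked 94 among all genes in the files. Hnrnpa2b1, which carries and packages mRNA, followed at 876 TPM. Srsf5 led the SR proteins at 523 TPM, with Srsf7 at 375, Srsf2 at 321 and Srsf3 at 168 TPM. Hnrnpf (476), Hnrnpa1 (362), Hnrnpc (312) and Hnrnpm (243 TPM) completed the 6 highest of the Hnrnp genes. At the low end stood Srsf4 with 7.71, Hnrnpul2 with 6.93 and Hnrnpll with 6.52 TPM, and Srsf12 with 0.346 TPM. Neighbours in this order often overlapped: Hnrnpa1 (304 to 439.8 TPM), Srsf2 (227 to 399.8 TPM) and Hnrnpc (244 to 425 TPM) did not separate. Summed over the family, the Srsf genes made up 0.142% to 0.181% of all TPM in a library and the Hnrnp genes 0.359% to 0.58%. Several levels are uncertain because the transcripts share sequence with other genes: of the 31-base words in the main coding transcript, 24.7% occurred in no other gene for Hnrnpa3, 43.8% for Hnrnpf, 45.3% for Hnrnpa1 and 57.3% for Hnrnpk.

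**Figure D1:**
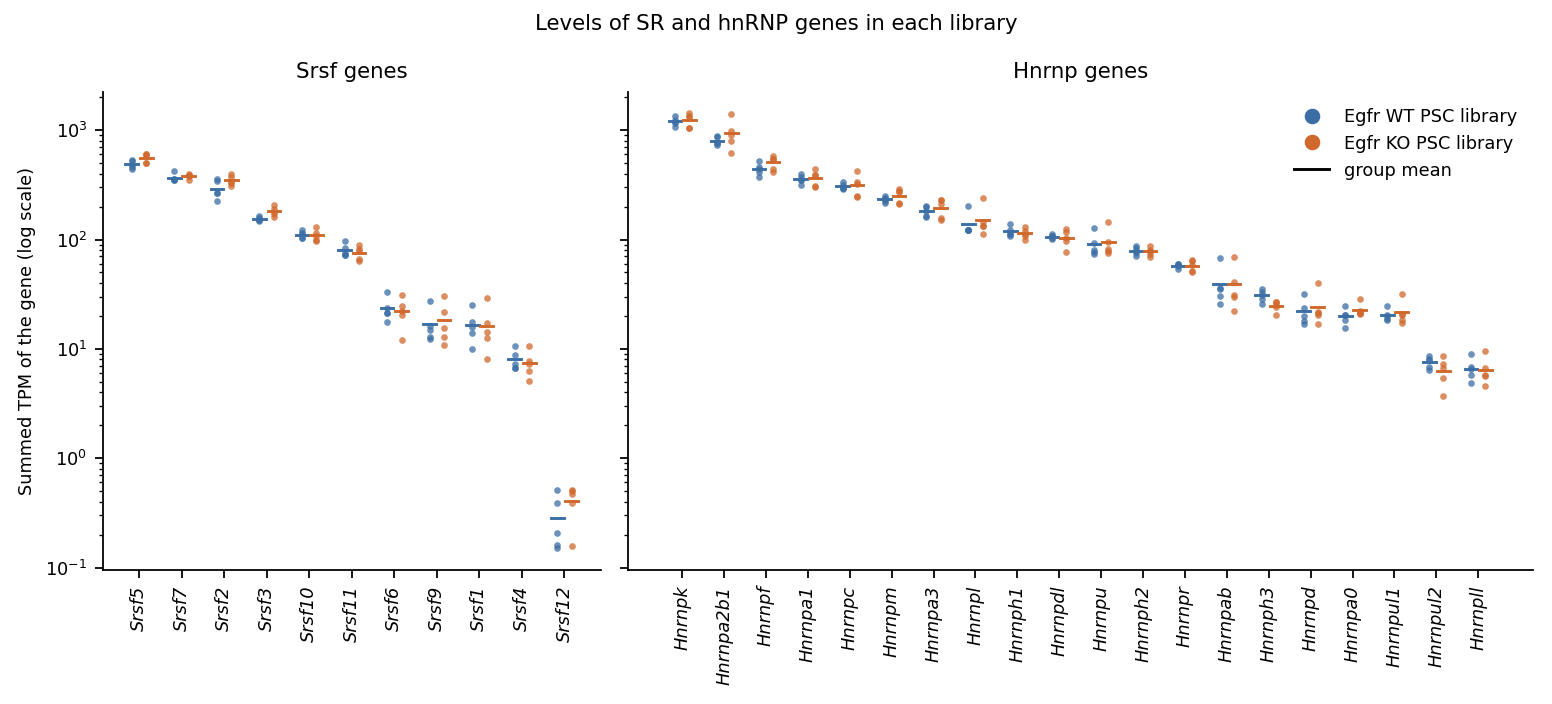
Summed TPM of each Srsf and Hnrnp gene (log axis) in the 5 Egfr WT PSC and 5 Egfr KO PSC libraries, with bars at the group means. Hnrnpk and Srsf5 lead their families at means of 1222 and 523 TPM, and the groups overlap for every gene but Hnrnph3 when read as CPM.

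A large part of the SR family's RNA came from transcripts that the annotation does not class as protein-coding. The exons below are those that separate the annotated NMD transcript of 3 SR genes from its coding partner, printed from the first base of the extra exon to the stop codon it brings in (stop in capitals, 5′ to 3′ on the gene's strand, GENCODE M21, GRCm38). In Srsf3-201 the extra exon is 456 bases long (chr17:29039454-29039909) and reaches a stop after 34 bases. In Srsf7-203 it is 460 bases long (chr17:80204622-80205081) with a stop after 28 bases. In Srsf6-201 it is 268 bases long (chr2:162932815-162933082) with a stop after 152 bases.
Srsf3-201: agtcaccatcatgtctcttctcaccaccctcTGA
Srsf7-203: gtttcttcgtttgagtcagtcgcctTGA
Srsf6-201: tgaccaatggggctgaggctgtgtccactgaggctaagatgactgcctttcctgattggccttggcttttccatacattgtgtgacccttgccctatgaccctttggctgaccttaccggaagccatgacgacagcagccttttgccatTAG
The last exon junction lay 548 bases past that stop in Srsf3-201, 699 bases past it in Srsf7-203 and 534 in Srsf6-201, the arrangement that marks a transcript for NMD.

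Srsf3, the smallest SR protein and an adaptor for mRNA export, was carried mostly by transcripts outside the protein-coding class. NMD transcripts held 38.4% of its TPM, retained-intron transcripts 20.8%, processed transcripts 18.9% and coding ones 21.9% (means of 10 libraries). The poison-exon transcript Srsf3-201 read 50.4, 68.4, 59.7, 53.4 and 66.1 TPM in the Egfr WT PSC libraries and 64.8, 66.3, 80.8, 75.6 and 61.4 TPM in the Egfr KO PSC libraries. The coding transcript Srsf3-202 read 46.9, 41.9, 29.1, 40.8 and 32.8 TPM in the Egfr WT PSC libraries and 26.9, 37.1, 45.5, 36.2 and 28.4 TPM in the Egfr KO PSC libraries. The poison-exon form was thus the higher of the pair in 10 of 10 libraries. Retained-intron transcripts added to it: Srsf3-204, which keeps introns of 2150 and 393 bases, averaged 14.6 TPM, and Srsf3-205, which starts within the longer of these introns, 19.3 TPM. The non-coding share of Srsf3, the percent of its summed TPM outside protein-coding transcripts, read 69.0, 74.3, 80.2, 73.2 and 79.3% in the Egfr WT PSC libraries and 84.4, 79.1, 78.1, 80.9 and 82.4% in the Egfr KO PSC libraries. No library fell below 69.0%. How far the reads fix this split is limited: 18.5% of the 31-base words of Srsf3-202 and 0% of those of Srsf3-201 occur in no other transcript, and the rest rests on the quantification model.

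Srsf7, an export adaptor with a zinc knuckle, showed the same kind of mixture at a higher level. The coding transcript Srsf7-208 read 131, 152, 126, 134 and 141 TPM in the Egfr WT PSC libraries and 128, 122, 168, 111 and 136 TPM in the Egfr KO PSC libraries. The poison-exon transcript Srsf7-203 read 49.7, 54.2, 76.6, 47.4 and 53.3 TPM in the Egfr WT PSC libraries and 64.1, 68.3, 52.0, 72.4 and 51.8 TPM in the Egfr KO PSC libraries. The coding form was the higher one in 10 of 10 libraries. Srsf7-206 and Srsf7-207 keep the whole 874-base intron that holds the poison exon and averaged 47.5 and 38.4 TPM. Srsf6, a larger SR protein, had 15.1 TPM of the coding transcript Srsf6-203 and 4.06 TPM of the poison-exon transcript Srsf6-201. Srsf6-201 read 2.76, 4.87, 3.90, 2.25 and 6.21 TPM in the Egfr WT PSC libraries and 3.52, 3.51, 6.42, 4.94 and 2.27 TPM in the Egfr KO PSC libraries. Both groups covered nearly the same range. Srsf4, its close relative, was mainly coding, with 6.36 of 7.71 TPM in Srsf4-202.

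In Srsf5 and Srsf2 retained-intron transcripts outweighed NMD transcripts, with 26.8% against 0.161% of the TPM of Srsf5 and 28.2% against 12.5% of that of Srsf2. The same held for Srsf7 (31.6% against 15.7%) and Srsf11 (47.6% against 1.35%). On average NMD transcripts were the larger of these classes in Srsf1, Srsf3, Srsf4 and Srsf6. For Srsf4 the order reversed in Egfr KO PSC replicate 3 (3.90% NMD against 6.14% retained-intron). The Srsf6 means were close, at 17.6% NMD against 15.2% retained-intron. The Srsf6 order reversed in Egfr KO PSC replicate 2 (15.9% against 20.5%). It also reversed in replicate 4 of Egfr WT PSC (10.5% against 17.5%). Srsf9 has no annotated retained-intron transcript, so these classes cannot be compared there. The lines below give the first 30 bases of introns kept in abundant retained-intron transcripts of 5 members (GT of the unused splice donor in capitals, 5′ to 3′, GENCODE M21, GRCm38). They lie at chr12:80947866-80949094 (Srsf5-212, 1229 bases) and chr11:116850962-116852020 (Srsf2-203, 1059 bases) for the SR genes. For the Hnrnp genes they lie at chr13:58393775-58393852 (Hnrnpk-217, 78 bases), chr7:28821274-28821391 (Hnrnpl-210, 118 bases), chr6:51463255-51463410 (Hnrnpa2b1-208, 156 bases).
Srsf5-212: GTttgttgaaatacagttttgagatatttt
Srsf2-203: GTaatgtctgcgggaatctgagacacgccc
Hnrnpk-217: GTaagtttcttctttttgaaatcaaacatt
Hnrnpl-210: GTgagtcagacaccacttccctccccgacc
Hnrnpa2b1-208: GTaagtagtttttaagttttacaattatta
The retained-intron transcript Srsf5-212 read 103, 123, 135, 144 and 124 TPM in the Egfr WT PSC libraries and 182, 129, 123, 163 and 134 TPM in the Egfr KO PSC libraries. The coding transcript Srsf5-201 read 148, 126, 146, 205 and 197 TPM in the Egfr WT PSC libraries and 147, 194, 191, 201 and 129 TPM in the Egfr KO PSC libraries. Srsf5, a shuttling SR protein, therefore had 26.0% of its TPM in this intron-retaining transcript and 32.2% in its leading coding transcript. Its 5 coding transcripts together held 53.3%. The retained-intron transcript Srsf2-203 read 63.4, 73.3, 108, 72.6 and 92.2 TPM in the Egfr WT PSC libraries and 113, 93.0, 78.4, 116 and 97.4 TPM in the Egfr KO PSC libraries. The coding transcript Srsf2-201 read 137, 147, 224, 163 and 196 TPM in the Egfr WT PSC libraries and 218, 212, 166, 248 and 194 TPM in the Egfr KO PSC libraries. Coding Srsf2, an activator of exon inclusion, was the higher form in 10 of 10 libraries.

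Srsf10, a splicing repressor when it loses its phosphates, and Srsf11, a partner of the U2AF factor, completed the 6 highest SR genes. Srsf10-204, coding, ranged from 25.5 to 41.6 TPM and Srsf10-207, a processed transcript with no annotated frame, from 19.8 to 30.4 TPM. Srsf11-202, coding, ranged from 28.4 to 38.4 TPM and Srsf11-213, a retained-intron transcript, from 9.71 to 18.7 TPM. The coding form was thus the larger in both genes on average. Srsf1, the founding member of the family, was low in these cells at 16.4 TPM (range 8.04 to 29.2), with 6.18 TPM in the coding Srsf1-205 and 5.27 TPM in the NMD transcript Srsf1-204. Srsf9 was 95.8% coding, and Srsf12 had coding transcripts only.

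In Hnrnpk and Hnrnph3 the NMD transcript arises differently: sequence is skipped and the frame shifts into a stop. The lines below show Hnrnpk-203 and Hnrnph3-204 from 12 bases before the new junction to the stop (stop in capitals, GENCODE M21, GRCm38). Hnrnpk-203 skips 44 bases of its coding partner on chromosome 13 and meets a stop 21 bases after the junction. Hnrnph3-204 skips 139 bases on chromosome 10 and meets one 104 bases after the junction.
Hnrnpk-203: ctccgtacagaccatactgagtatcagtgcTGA
Hnrnph3-204: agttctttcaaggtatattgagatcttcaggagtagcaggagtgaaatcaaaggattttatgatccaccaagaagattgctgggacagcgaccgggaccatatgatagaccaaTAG
The leading coding transcript Hnrnpk-224 read 401, 299.6, 287, 262 and 253 TPM in the Egfr WT PSC libraries and 391, 326, 336, 281 and 499 TPM in the Egfr KO PSC libraries. The retained-intron transcript Hnrnpk-217 read 114, 148, 176, 213 and 209.9 TPM in the Egfr WT PSC libraries and 103, 205, 269, 201 and 57.5 TPM in the Egfr KO PSC libraries. These 2 forms moved apart in Egfr KO PSC replicate 5, which had the highest Hnrnpk-224 (499 TPM) and the lowest Hnrnpk-217 (57.5 TPM) of the 10 libraries. Hnrnpk-203 averaged 63.9 TPM, from 21.6 to 89.9.

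Hnrnph3, a small relative of the G-run binding proteins Hnrnph1, Hnrnph2 and Hnrnpf, had more of its NMD form than of any coding form. The NMD transcript Hnrnph3-204 read 13.4, 9.81, 15.0, 13.6 and 12.1 TPM in the Egfr WT PSC libraries and 9.46, 9.88, 10.4, 9.82 and 7.02 TPM in the Egfr KO PSC libraries. The coding transcript Hnrnph3-202 read 7.51, 5.13, 5.60, 6.22 and 4.20 TPM in the Egfr WT PSC libraries and 4.15, 4.19, 5.06, 2.49 and 2.57 TPM in the Egfr KO PSC libraries. The NMD form was the higher in 10 of 10 libraries. Hnrnph1 was 58.4% processed transcripts, whereas Hnrnpf and Hnrnph2 have only coding transcripts in the annotation. Hnrnpf-201, the leading Hnrnpf transcript, ranged from 167 to 296 TPM. Hnrnpl, which binds CA-rich RNA, was carried largely by the 672-base retained-intron transcript Hnrnpl-210 at 75.9 TPM, against 24.1 TPM of the coding Hnrnpl-201. Hnrnpu, a large nuclear scaffold protein, had 26.3 TPM of the coding Hnrnpu-201 and 23.4 TPM of the NMD transcript Hnrnpu-206. The balance of classes thus differed widely between genes. Hnrnpd, which binds AU-rich elements, was 38.8% NMD transcripts. In Hnrnpa1, the best-known silencer of exons, the NMD transcript Hnrnpa1-203 keeps the normal frame of 963 bases, and its last junction lies 90 bases past the stop. Hnrnpa1-203 read 90.8, 72.1, 81.7, 61.0 and 67.1 TPM in the Egfr WT PSC libraries and 83.8, 76.7, 78.6, 80.4 and 84.3 TPM in the Egfr KO PSC libraries. Coding Hnrnpa1-202 was higher in 10 of 10 libraries, from 192 to 293 TPM.

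Coding transcripts also differed in the protein they encode. The segments below separate the named coding forms of Hnrnpa2b1 and Hnrnpc (5′ to 3′, GENCODE M21, GRCm38): the exon that makes B1 from A2 in Hnrnpa2b1 (chr6:51467391-51467426, 36 bases), the segment that makes C2 from C1 in Hnrnpc (chr14:52081789-52081827, 39 bases), and the exon of the glycine-rich region that Hnrnpa2b1-201 and Hnrnpa2b1-210 lack (chr6:51464428-51464547, 120 bases).
Hnrnpa2b1-203: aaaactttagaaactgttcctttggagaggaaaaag
Hnrnpc-201: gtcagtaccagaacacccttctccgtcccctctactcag
Hnrnpa2b1-204: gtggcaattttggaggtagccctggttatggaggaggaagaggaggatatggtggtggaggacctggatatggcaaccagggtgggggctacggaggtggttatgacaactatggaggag
The A2 frame of 1026 bases held 45.2% of the coding TPM of Hnrnpa2b1, the B1 frame of 1062 bases 27.3%, and the 906-base frame without that exon 27.4%. A2 took 51.2, 46.6, 52.0, 50.6 and 48.0% of the coding TPM in the Egfr WT PSC libraries and 37.4, 45.5, 42.7, 45.6 and 32.6% in the Egfr KO PSC libraries. The 906-base frame took 22.7, 27.7, 19.5, 20.6 and 22.3% and 40.1, 23.6, 28.4, 23.5 and 46.0% in the same order. Every Egfr KO PSC library thus had a smaller A2 share than every Egfr WT PSC library, while the groups overlapped for the other Hnrnpa2b1 forms. Both main frames of Srsf1 separated as well: the 747-base frame of Srsf1-205 held 63.2, 62.4, 63.5, 62.4 and 58.1% of its coding TPM with Egfr WT PSC and 55.1, 57.5, 48.7, 57.5 and 53.2% with Egfr KO PSC, and the 606-base frame of Srsf1-201 took nearly all of the rest. Of 40 member frames (complete frames holding at least 5% of the coding TPM of a gene with 2 or more such frames), these 3 did not overlap between the groups, beside 0.982% of 8347 frames over all protein-coding genes. The frames of 1 gene are not independent, and these patterns were singled out after their values were seen and were not tested. In Hnrnpc, a tetramer that binds uridine tracts, the 903-base frame held 40.3% and the 942-base frame, which adds the C2 segment, 10.2% of the coding TPM. Other Hnrnpc frames, of 882 and 879 bases, held 31.6% and 12.7%. In Hnrnpa1 the 963-base frame held 82.9%, and the 1122-base frame with an added 159-base exon 16.6%. Hnrnpm, a nuclear matrix-associated member, had 77.1% in its 2073-base frame and 19.1% in its 2040-base frame. Among the main forms, 0% of the 31-base words of Hnrnpa2b1-204 and 2.12% of those of Hnrnpc-207 occur in no other transcript, so the shares rest on the quantification model.

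Across each family, non-coding transcripts held 44.7% to 53.1% of the summed Srsf TPM in a library and 17.6% to 23.9% of the summed Hnrnp TPM. All other protein-coding genes together had 10.1% to 11.9%. These 3 ranges did not touch. NMD transcripts alone made up 10.7% of Srsf, 5.30% of Hnrnp and 2.80% of other protein-coding TPM (means of 10 libraries). Gene by gene, the median share of the 25 members tested was 32.9%, beside 15.7% over the 7444 genes tested, and 12 of 25 members (48.0%) lay above 40%, beside 21.6% of all genes. The highest shares were those of Hnrnpl (80.0%), Srsf3 (78.1%), Hnrnpu (71.6%) and Hnrnph3 (68.6%). The comparison was not matched for the number of annotated transcripts. The share of Hnrnpl read 79.9, 78.5, 79.3, 81.9 and 80.9% in the Egfr WT PSC libraries and 80.6, 81.3, 80.9, 78.6 and 78.0% in the Egfr KO PSC libraries. The share of Hnrnpu read 72.8, 66.5, 75.4, 69.5 and 72.9% in the Egfr WT PSC libraries and 71.2, 71.3, 70.3, 71.0 and 75.5% in the Egfr KO PSC libraries. The share of Hnrnph3 read 62.8, 69.4, 66.9, 65.9 and 78.6% in the Egfr WT PSC libraries and 70.9, 63.3, 69.9, 73.0 and 65.6% in the Egfr KO PSC libraries. The 2 groups overlapped for each gene. Read as estimated counts, which give short transcripts less weight, the mean shares were 62.6% for Hnrnpl, 74.5% for Srsf3, 34.5% for Hnrnpu, 59.1% for Hnrnph3 and 16.5% for Srsf10 (46.7% by TPM). Low shares also depended on the unit, such as that of Srsf1 with 32.6% by TPM and 8.19% by counts. Fewer members lay above 40% by counts than by TPM, and no rate by counts over all genes is given.

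**Figure D2:**
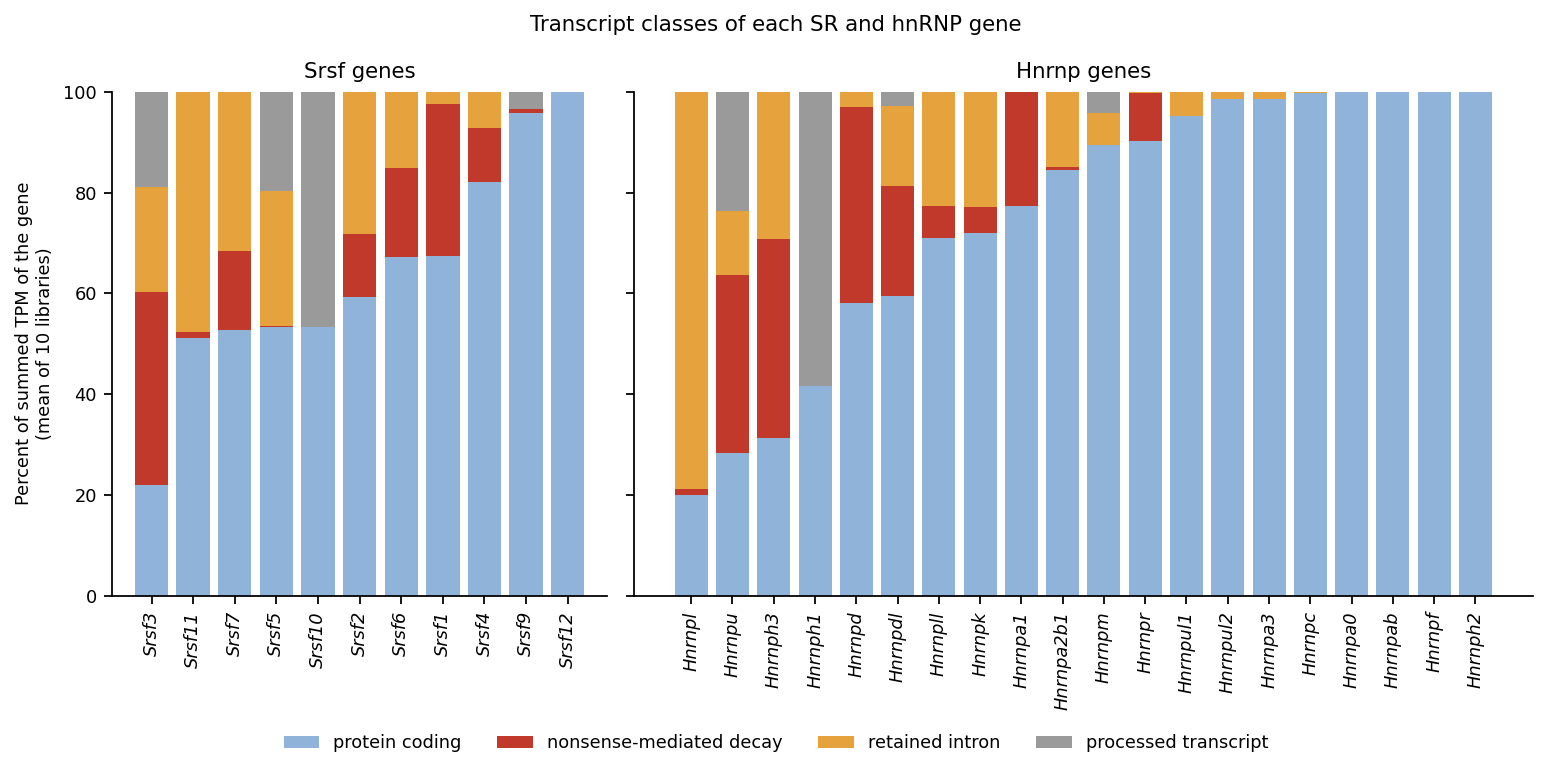
Mean percent of each gene's summed TPM (10 libraries) in protein-coding, NMD, retained-intron and processed transcripts, genes ordered by their coding part. Hnrnpl and Srsf3 have the largest non-coding part at 80.0% and 78.1%, while Hnrnpa0, Hnrnpab, Hnrnpf, Hnrnph2 and Srsf12 are wholly coding.

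No member differed between tumours grown with Egfr KO PSCs and those grown with Egfr WT PSCs at an adjusted p of 0.05 (edgeR quasi-likelihood test, Benjamini-Hochberg over 17495 genes). Over all genes the same test called 0%, and 8.15% had an unadjusted p under 0.05. All 31 members passed the low-count filter, and 1 of them, Hnrnph3, had an unadjusted p under 0.05. DESeq2 called 0.831% of the genes it tested and no member, with 2 members under an unadjusted 0.05. The estimates of 19 members lay above 0 and those of 12 below, with a median of 0.0648 on the log2 scale beside 0.00041 for all genes, of which 50.1% lay above 0. Without Egfr KO PSC replicate 3, 13 of 31 lay above 0 with a median of -0.03. The 95% interval lay within 1 log2 unit of no change for 30 of 31 members and within 0.5 for 16. Srsf12, at the lowest level, had the widest interval (-0.23 to 1.29).

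**Figure D3:**
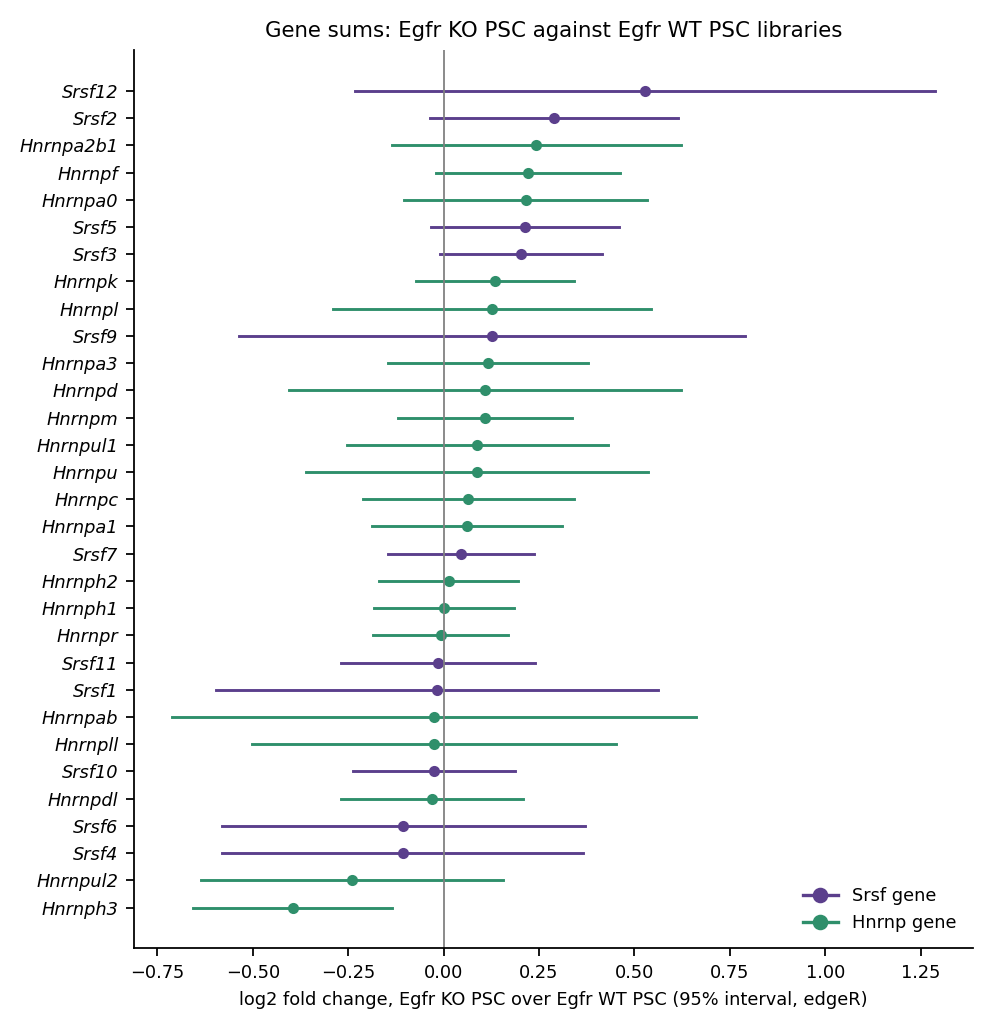
Estimated log2 fold change of every member gene, Egfr KO PSC over Egfr WT PSC (points), with its 95% interval (lines) from the edgeR fit of 5 against 5 libraries. Only the interval of Hnrnph3, at -0.40, excludes 0.

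Hnrnph3 had the lowest unadjusted p. Hnrnph3 read 27.9, 22.8, 29.8, 28.8 and 23.8 CPM in the Egfr WT PSC libraries and 20.9, 20.4, 21.7, 21.3 and 16.8 CPM in the Egfr KO PSC libraries. As CPM, every Egfr KO PSC library was below every Egfr WT PSC library. Groups that did not overlap, in either direction, were found for 1.52% of all genes tested. As TPM the Hnrnph3 groups overlapped, with 25.5 TPM in Egfr WT PSC replicate 2 and 27.1 TPM in Egfr KO PSC replicate 3. The means were 26.6 ± 3.13 and 20.2 ± 1.96 CPM (SD, n = 5), and the edgeR fit gave a log2 fold change -0.40, SE 0.12, adjusted p = 0.44, so the difference did not pass the test. Estimates below 0 were also found for 14 of 14 genes of the dissociation and immediate early response, their summed level ranging from 9827 to 12920.5 CPM with Egfr WT PSC and from 7557 to 11534 CPM with Egfr KO PSC. Macrophage markers were below 0 for 8 of 11, fibroblast markers for 9 of 12, endothelial markers for 8 of 8 and erythroid markers for 4 of 4. Of these, 7 macrophage, 3 fibroblast, no endothelial and 4 erythroid markers had an unadjusted p under 0.05 in edgeR. So did 6 of the stress genes, beside 4.6% of all genes tested in this direction. The median log2 fold change was -1.17 for the macrophage, -0.48 for the fibroblast and -0.26 for the endothelial markers. The erythroid markers had a median log2 fold change of -3.83, and 3 of them did not overlap; the part of endothelial and erythroid RNA in the Hnrnph3 difference was not tested. With the stress score of each library as a covariate the Hnrnph3 estimate was -0.34 (SE 0.18) and its unadjusted p was above 0.05, with the fibroblast score -0.45 (SE 0.15), and with the macrophage score -0.45 (SE 0.16).

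Among members with estimates above 0, Srsf3, Hnrnpf, Srsf2 and Srsf5 had the lowest unadjusted p. Srsf3 read 220.2, 270.2, 219, 227 and 257 CPM in the Egfr WT PSC libraries and 262, 269, 306, 287 and 250.3 CPM in the Egfr KO PSC libraries. Hnrnpf read 593, 592, 534, 664 and 507 CPM in the Egfr WT PSC libraries and 602, 710.4, 746, 722 and 588 CPM in the Egfr KO PSC libraries. Srsf2 read 224, 276, 362, 267 and 353 CPM in the Egfr WT PSC libraries and 396, 340.0, 291, 421 and 363 CPM in the Egfr KO PSC libraries. The groups overlapped for each of these genes. Srsf5 read 486, 532, 531, 612 and 619 CPM in the Egfr WT PSC libraries and 724, 564, 562, 679 and 695 CPM in the Egfr KO PSC libraries. Srsf5 also overlapped. The edgeR estimates were 0.20 (SE 0.10) for Srsf3, 0.22 (SE 0.11) for Hnrnpf, 0.29 (SE 0.15) for Srsf2 and 0.21 (SE 0.11) for Srsf5, with adjusted p from 0.637 to 0.663. Below 0, after Hnrnph3, came Hnrnpul2, Srsf4 and Srsf6. Hnrnpul2 read 20.9, 24.5, 24.7, 26.2 and 29.1 CPM in the Egfr WT PSC libraries and 18.7, 21.9, 28.0, 24.2 and 13.3 CPM in the Egfr KO PSC libraries. Srsf4 read 8.47, 12.8, 9.55, 9.00 and 14.5 CPM in the Egfr WT PSC libraries and 9.82, 8.13, 14.5, 10.6 and 7.36 CPM in the Egfr KO PSC libraries. Srsf6 read 35.6, 50.0, 41.6, 45.0 and 69.5 CPM in the Egfr WT PSC libraries and 42.4, 44.3, 61.2, 49.6 and 27.0 CPM in the Egfr KO PSC libraries. Here too the groups overlapped, and the estimates were -0.24 (SE 0.18), -0.11 (SE 0.22) and -0.11 (SE 0.22), with adjusted p from 0.758 to 0.921.

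The remaining abundant members varied little or by library rather than by group. Hnrnpk read 1560.3, 1337, 1372, 1440.3 and 1341 CPM in the Egfr WT PSC libraries and 1461, 1531, 1523, 1478 and 1744 CPM in the Egfr KO PSC libraries. Hnrnpa2b1 read 898, 820.2, 750.4, 906 and 832 CPM in the Egfr WT PSC libraries and 843, 1017, 1465, 972 and 680.4 CPM in the Egfr KO PSC libraries. Hnrnpa2b1 had both its highest and its lowest value among the Egfr KO PSC libraries. Hnrnpa1 read 425, 367, 362, 381 and 428 CPM in the Egfr WT PSC libraries and 338, 428, 480.1, 440.1 and 359.5 CPM in the Egfr KO PSC libraries. Hnrnpc read 318, 346, 315, 352 and 386 CPM in the Egfr WT PSC libraries and 294, 375, 453, 372 and 302 CPM in the Egfr KO PSC libraries. Hnrnpm read 321, 330.4, 312, 357 and 333 CPM in the Egfr WT PSC libraries and 310.1, 384, 398, 388 and 302 CPM in the Egfr KO PSC libraries. Egfr KO PSC replicate 3 was the highest library for these 3 genes. Srsf7 read 327, 359.8, 399, 339 and 357 CPM in the Egfr WT PSC libraries and 389, 370.1, 350.4, 384 and 347 CPM in the Egfr KO PSC libraries. Srsf10 read 148, 134, 150.0, 160.3 and 135 CPM in the Egfr WT PSC libraries and 127, 136, 163, 152 and 135 CPM in the Egfr KO PSC libraries. Srsf11 read 98.0, 120.2, 111, 104 and 144 CPM in the Egfr WT PSC libraries and 102, 111, 128, 119.9 and 111 CPM in the Egfr KO PSC libraries. The groups overlapped for all 3 of these SR genes. The smallest standard errors were those of Hnrnpr (99.1 ± 2.27 and 98.6 ± 6.64 CPM), Hnrnph1 (140.4 ± 10.3 and 140.4 ± 6.15) and Hnrnph2 (129 ± 7.61 and 130.4 ± 7.62, SD, n = 5 each), all with 95% intervals between -0.18 and 0.20 on the log2 scale. Among the members not described so far, Hnrnpa3 had 236 ± 24.6 and 256 ± 37.5 CPM, Hnrnpdl 140.5 ± 7.22 and 138 ± 20.3, Hnrnpa0 26.2 ± 4.92 and 30.4 ± 4.04, Hnrnpul1 49.2 ± 7.60 and 52.4 ± 12.0, Hnrnpll 12.9 ± 3.54 and 12.7 ± 3.37, and Srsf12 0.43 ± 0.18 and 0.623 ± 0.193 CPM (SD, n = 5 each), all overlapping.

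Of the 282 member transcripts, 197 passed the low-count filter and none passed an adjusted p of 0.05 in edgeR, which called 0% of 46220 transcripts. An unadjusted p under 0.05 was found for 13 of them (6.60%), beside 5.14% of all transcripts. Of the 13, 10 had estimates above 0 (background 2.41%) and 3 below (2.73%). DESeq2 called 0.462% of the transcripts it tested, among them 1 member transcript, Hnrnph3-204 (adjusted p = 0.0491). As CPM, Hnrnph3-204 read 12.4, 10.1, 13.2, 12.4 and 11.8 CPM in the Egfr WT PSC libraries and 8.89, 8.98, 9.50, 9.24 and 6.89 CPM in the Egfr KO PSC libraries. The groups did not overlap on this scale, which held for 1.16% of transcripts tested, and overlapped in the TPM listed above. The edgeR fit gave a log2 fold change -0.46, SE 0.14, adjusted p = 0.967. The coding Hnrnph3-202 had an estimate of -0.63 (SE 0.23), so both the NMD and the coding form of this gene lay below 0. Of the other transcripts on this side, the coding Srsf10-205 had -0.33 (SE 0.13), and the coding Srsf11-204 -0.39 (SE 0.24).

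Above 0, the lowest p belonged to intron-retaining Srsf3 transcripts and to the Hnrnpa2b1 forms of the shorter frame. Srsf3-204 read 11.5, 11.5, 15.0, 12.2 and 14.1 TPM in the Egfr WT PSC libraries and 17.5, 18.6, 16.6, 15.7 and 13.7 TPM in the Egfr KO PSC libraries. Srsf3-205 read 13.2, 16.1, 19.2, 15.7 and 18.8 TPM in the Egfr WT PSC libraries and 25.2, 21.9, 21.1, 23.4 and 18.1 TPM in the Egfr KO PSC libraries. Both overlapped between the groups, with edgeR estimates of 0.35 (SE 0.11, adjusted p = 0.967) and 0.40 (SE 0.13, adjusted p = 0.972). Hnrnpa2b1-210 read 21.2, 55.2, 14.4, 33.5 and 40.04 TPM in the Egfr WT PSC libraries and 80.0, 59.1, 128, 55.7 and 65.0 TPM in the Egfr KO PSC libraries. Hnrnpa2b1-201 read 150.0, 119.9, 107, 120.4 and 106 TPM in the Egfr WT PSC libraries and 178, 137, 222, 131 and 167 TPM in the Egfr KO PSC libraries. These are the 2 transcripts of the 906-base frame, and their estimates were 1.20 (SE 0.39) and 0.47 (SE 0.16), both with an adjusted p of 0.972 in edgeR. The A2 transcript Hnrnpa2b1-204 read 337, 233, 255, 313 and 270.4 TPM in the Egfr WT PSC libraries and 179.5, 319.8, 456, 311 and 110.3 TPM in the Egfr KO PSC libraries. It spread widely within the Egfr KO PSC group and had an estimate of -0.04 (SE 0.30). By class, 36 of 54 member retained-intron transcripts had estimates above 0, beside 58.5% of all retained-intron transcripts. The counts were 14 of 24 for NMD transcripts (53.7% of all), 17 of 23 for processed transcripts (55.9%) and 54 of 96 for coding ones (45.9%). Over the classes together 121 of 197 lay above 0, beside 50.8% of all transcripts, and without Egfr KO PSC replicate 3 it was 92 of 200. Of the leading transcripts not listed yet, Hnrnpa2b1-211 (retained intron) ranged from 45.6 to 77.1 TPM, Hnrnpc-207 (coding) from 107 to 185 TPM, Hnrnpm-201 (coding) from 140.0 to 203 TPM and Hnrnpm-213 (retained intron) from 3.32 to 22.6 TPM. The retained-intron transcripts Hnrnpc-208, Srsf4-201 and Hnrnpul2-202 averaged under 1 TPM.

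**Figure D4:**
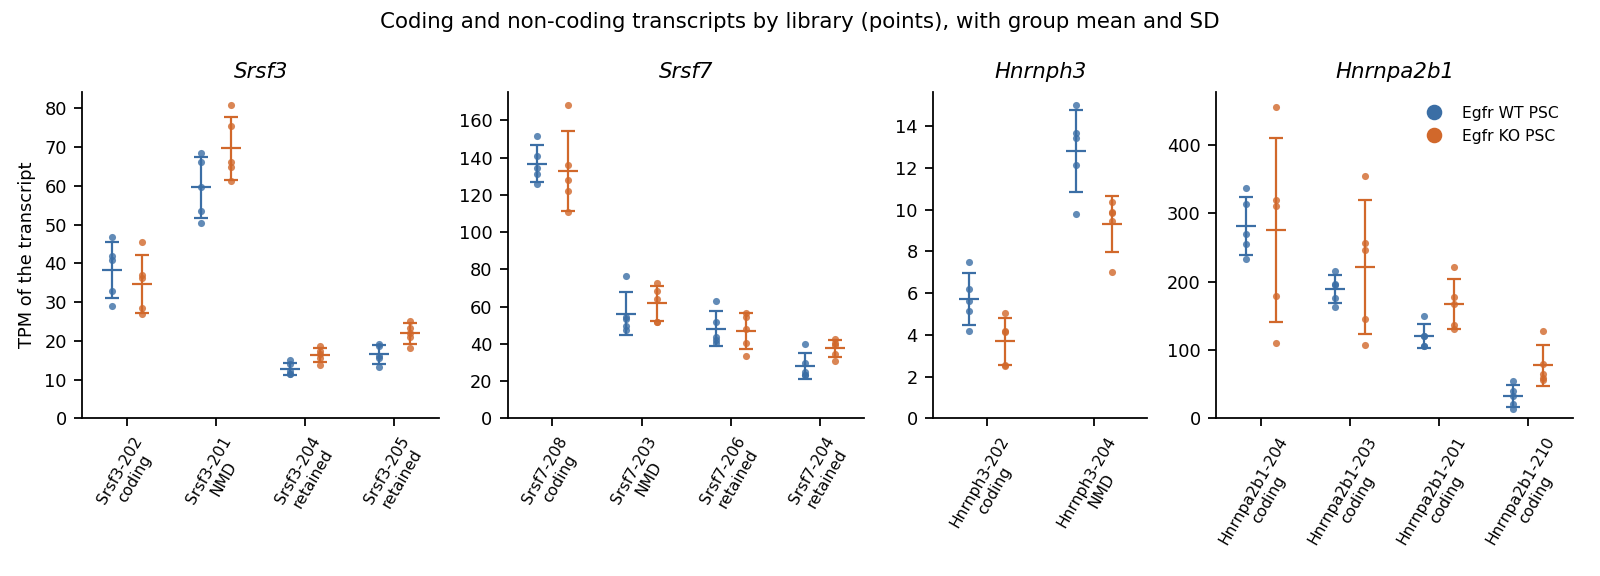
TPM of coding, NMD and retained-intron transcripts of Srsf3, Srsf7, Hnrnph3 and Hnrnpa2b1 in each library (points), with group mean and SD (bars) for 5 Egfr WT PSC and 5 Egfr KO PSC libraries. The poison-exon form Srsf3-201 lies above the coding Srsf3-202. Hnrnph3-204 averages 12.8 ± 1.96 TPM with Egfr WT PSC and 9.31 ± 1.32 TPM with Egfr KO PSC. Its groups overlap as TPM, and the difference did not pass the adjusted threshold in edgeR.

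The ratio of non-coding to coding TPM did not pass an adjusted p of 0.05 for any member either (limma on log2 ratios, 7444 genes, 0% called, 4.88% with an unadjusted p below 0.05: 3.51% above 0 and 1.37% below 0). Of 31 members, 25 were tested, 5 have coding transcripts only, and Hnrnpul2 had too few non-coding counts. Srsf3 was the single member with an unadjusted p under 0.05: its share averaged 75.2 ± 4.60% with Egfr WT PSC and 81.0 ± 2.52% with Egfr KO PSC (SD, n = 5), a log2 ratio difference of 0.48 (SE 0.20) with an adjusted p of 0.966 in limma. In the per-library values above, 2 Egfr WT PSC libraries reach into the Egfr KO PSC range; groups that did not overlap were found for 0.846% of all genes and no member. Srsf3 lost its unadjusted p under 0.05 when Egfr WT PSC replicate 1, 2 or 4 or Egfr KO PSC replicate 1, 4 or 5 was left out, and when the ratio was taken from estimated counts, where Hnrnph1 was the single member under 0.05. Estimates lay above 0 for 17 of 25 members, beside 60% of all genes. The share of Hnrnph1 read 48.5, 59.4, 55.7, 55.9 and 62.0% in the Egfr WT PSC libraries and 61.5, 59.0, 62.9, 60.6 and 58.7% in the Egfr KO PSC libraries. The share of Srsf7 read 43.6, 42.0, 52.1, 42.1 and 45.7% in the Egfr WT PSC libraries and 52.9, 51.9, 39.3, 53.7 and 49.3% in the Egfr KO PSC libraries. Egfr KO PSC replicate 3 was the lowest Srsf7 library and the highest Hnrnph1 library. The differences were 0.25 (SE 0.16) for Hnrnph1, 0.42 (SE 0.31) for Hnrnpr and 0.25 (SE 0.20) for Srsf7. On the other side stood Hnrnpa3 with -0.28 (SE 0.36), Srsf11 with -0.14 (SE 0.20), Srsf1 with -0.19 (SE 0.34) and Hnrnpk with -0.17 (SE 0.34), with adjusted p in limma from 0.987 to 0.989.

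Many members varied together between libraries of the same group. Of 31 members, 17 had their highest Egfr WT PSC value in replicate 5 and their highest Egfr KO PSC value in replicate 3, 54.8% of the members and 14.3% of all genes tested. Hnrnpab read 31.1, 46.3, 35.7, 44.2 and 86.8 CPM in the Egfr WT PSC libraries and 37.7, 38.2, 83.4, 50.3 and 30.2 CPM in the Egfr KO PSC libraries. Hnrnpu read 158, 202, 177, 188 and 282 CPM in the Egfr WT PSC libraries and 189, 178, 329, 211 and 164 CPM in the Egfr KO PSC libraries. Hnrnpl read 85.2, 95.1, 87.3, 85.7 and 141 CPM in the Egfr WT PSC libraries and 96.6, 90.5, 159.8, 104 and 89.1 CPM in the Egfr KO PSC libraries. For each gene those same libraries, WT replicate 5 and KO replicate 3, stood above the other 8 libraries. Hnrnpd read 15.2, 22.1, 16.7, 15.7 and 29.5 CPM in the Egfr WT PSC libraries and 18.6, 18.3, 33.6, 20.1 and 16.5 CPM in the Egfr KO PSC libraries. Srsf9 read 7.48, 10.4, 7.94, 10.2 and 17.9 CPM in the Egfr WT PSC libraries and 8.36, 9.71, 19.3, 14.2 and 7.34 CPM in the Egfr KO PSC libraries. Srsf1 read 24.2, 36.1, 26.7, 36.6 and 49.5 CPM in the Egfr WT PSC libraries and 27.3, 30.6, 57.4, 35.0 and 20.7 CPM in the Egfr KO PSC libraries. Hnrnpab, an mRNA-binding relative of Hnrnpd, and Srsf9 and Srsf1, which are close in sequence, were likewise highest in these libraries. Across the 10 libraries the log2 CPM of Hnrnpab and Hnrnpu had a Pearson r of 0.975, Hnrnpl and Hnrnpu 0.974 and Hnrnpab and Srsf9 0.973; these pairs were picked as the highest and share the 10 libraries and their depth. The lowest were Hnrnpk with Hnrnpul2 (r = -0.765), Hnrnpr with Srsf5 (r = -0.762) and Hnrnpk with Srsf6 (r = -0.703). The same 2 libraries had the highest non-coding share over all other protein-coding genes, 11.5% and 11.9% against 10.1% to 11.2% in the rest. The part of RNA quality or cell content in this pattern was not tested. Without both libraries, an alternative chosen after seeing the data, no member passed the adjusted threshold in edgeR, and Hnrnph3, Srsf2 and Srsf5 had an unadjusted p under 0.05.

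**Figure D5:**
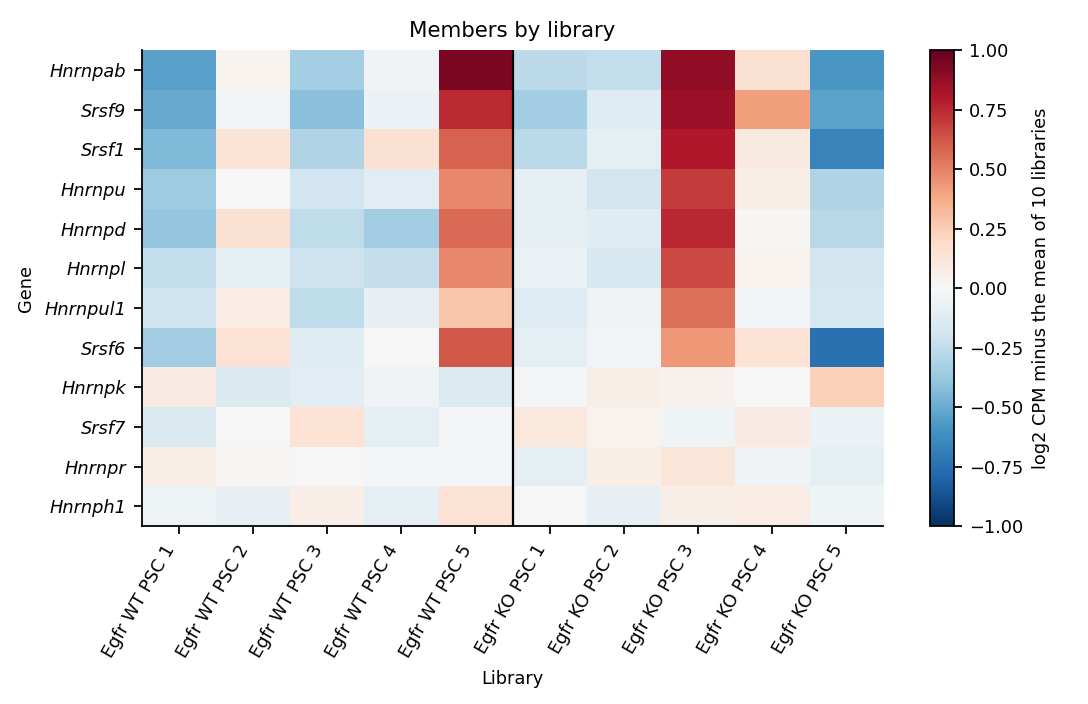
Log2 CPM of 12 members in each library minus the gene's mean over the 10 libraries (colour), 8 that follow the described order of libraries above 4 that do not. Replicate 5 of Egfr WT PSC and replicate 3 of Egfr KO PSC are high for Hnrnpab (86.8 and 83.4 CPM) down to Srsf6, while Hnrnpk, Srsf7, Hnrnpr and Hnrnph1 vary less.

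The genes whose log2 CPM was most like that of the most abundant member of each family were looked up over the 10 libraries. For Srsf5 they were Klc3 (0.972), Mindy3 (0.955), Anxa1 (0.938), Per3 (0.93) and Secisbp2l (0.923), with Pearson r in brackets. For Hnrnpk they were Eif4g2 (0.961), Rbsn (0.938), Gdi2 (0.937), Nol6 (0.932) and Plcxd2 (0.925). They are the 5 highest of all genes tested and share the libraries and their depth.

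Other genes of the splicing machinery were read from 7 lists. Of 131 genes, 130 were tested, none passed the adjusted threshold, 8 had an unadjusted p under 0.05 with estimates above 0 (background 3.55%) and 1 below (4.6%). Estimates lay above 0 for 82 and below for 48, beside 50.1% above 0 over all genes, with a median of 0.06. By list, estimates lay above 0 for 8 of 12 SR protein kinases and phosphatase genes, which set the phosphorylation of the SR tail, and for 6 of 6 nuclear transport genes. They did so for 15 of 25 SR-related proteins, 13 of 19 hnRNP relatives under other symbols, 13 of 25 other splicing regulators, 19 of 28 early spliceosome proteins and 8 of 15 NMD factors. Rnps1, a subunit of the exon junction periphery, read 156, 174, 175, 173 and 207 CPM in the Egfr WT PSC libraries and 209.5, 221, 249.8, 235 and 238 CPM in the Egfr KO PSC libraries. Qk, an RNA-binding regulator of splicing, read 59.6, 58.1, 57.1, 71.2 and 78.1 CPM in the Egfr WT PSC libraries and 80.3, 76.9, 98.8, 121 and 101 CPM in the Egfr KO PSC libraries. Rnps1 did not overlap between the groups and Qk did. The edgeR fit gave Rnps1 a log2 fold change 0.38, SE 0.10, adjusted p = 0.396, and Qk 0.56 (SE 0.14). Below 0 stood Pcbp4, a poly-C binding protein related to Hnrnpk, at 27.7 ± 11.6 and 16.7 ± 1.60 CPM, and Upf3a, an NMD factor, at 8.35 ± 1.22 and 6.76 ± 1.20 CPM (SD, n = 5). Tnpo1, which imports hnRNPs into the nucleus, and Smg9, an NMD factor, also did not overlap between the groups and were picked out after their values were seen. Groups that did not overlap were thus found for 3 of the 130 list genes tested, beside 1.52% of all genes tested.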

How the data were processed

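RNA-seq of sorted tumour epithelium was read from 10 transcript quantifications, 5 libraries per group. Per the submitters' processing notes the authors ran Salmon 1.9.0 against GRCm39 (mm39); which annotation release they used is not stated there. As deposited, the estimated counts are not normalized and need not be whole numbers, and the authors' deposited TPM are scaled within each library by effective length. Per the labels' protocols, libraries came from a low-input kit with a number of PCR cycles set by the RNA input, and without molecular identifiers, duplicates cannot be told apart.

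Transcripts were matched to GENCODE M21 (GRCm38) by identifier without version for gene names, biotypes and structures, since the files carry none. Of 147828 transcripts 137063 matched, all 282 member transcripts with the same length in both; the other 10765 stayed out. Gene sums are estimated counts added over transcripts, then rounded. The main tests were edgeR 4.0.16 quasi-likelihood fits (TMM, filterByExpr) of gene sums and of transcripts, and limma 3.58.1 with trend on log2 of non-coding over coding TPM, each with 0.1 added, for protein-coding genes with at least 10 counts of each class in at least 5 libraries. P-values were adjusted by Benjamini-Hochberg over all features tested, and all tests are two-sided. Alternatives used DESeq2 1.42.0, voom, other scaling, filters, covariates and left-out libraries. Each library pair differed beyond counting noise, and none was treated as a repeat. Repeat libraries of the same tumour can also differ beyond counting noise, so this does not show that the libraries are independent.

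The members, lists, tests and alternatives were chosen with earlier results of these data known. Groups came from the labels, and the order of replicate numbers from the accessions. Library values are given for the 6 most abundant members of each family and the 4 members of lowest p in each direction. Their leading coding and other transcript, the 4 transcripts and shares of lowest p in each direction with the 4 highest shares, 2 list genes in each direction and the 5 genes of most similar pattern are also given; others were picked after their values were seen. Protein sequences were not used here.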

Additional observations from a re-analysis of the deposited data

Results flagged for a closer look

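The gene levels and non-coding shares of the members gave 112 groups of 5 libraries. Of these, 12 held a library standing far from the other 4 by Dixon's criterion. Chance alone gives about 5% where the groups are independent. Here they share the same libraries, and many members varied together, so the count cannot be judged against that rate. No rate over all genes is given for comparison. Egfr WT PSC replicate 5 was high for Hnrnpab at 86.77 CPM (others 31.06 to 46.34), for Hnrnpl at 140.7 CPM (85.21 to 95.09) and for Srsf9 at 17.87 CPM (7.484 to 10.42). Egfr KO PSC replicate 3 was high for Hnrnpd at 33.59 CPM (16.45 to 20.09), for Hnrnpl at 159.8 CPM (89.09 to 103.6), for Hnrnpu at 328.5 CPM (163.5 to 210.5) and for Hnrnpul1 at 73.55 CPM (44.45 to 49.23). In the same library the non-coding share of Hnrnpdl was low at 37.21% (41.9% to 42.54%). Egfr KO PSC replicate 5 was low for Hnrnph3 at 16.83 CPM (20.45 to 21.65) and high for Hnrnpk at 1744 CPM (1461 to 1531). Its non-coding shares were high for Hnrnpm at 15.58% (9.633% to 10.96%) and for Hnrnpu at 75.53% (70.27% to 71.33%).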

How the results depend on the processing

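No member gene passed the adjusted threshold under the 19 alternatives of the gene test, the smallest adjusted p being 0.109 (Hnrnph3 in DESeq2), and no member share passed it under the alternatives run, the smallest being 0.747. Of the member transcripts, edgeR and limma called 0 in every alternative run and DESeq2 called 1, Hnrnph3-204, with an adjusted p of 0.0491. With a library left out, the members called ranged from 0 to 0 in all 3 tests. Over all features the counts called were 0 genes in edgeR and 131 in DESeq2, 1 without the low-count filter, and 2 without Egfr WT PSC replicate 5, 4 without Egfr KO PSC replicate 1 and 1 without Egfr KO PSC replicate 3. For transcripts they were 0 in edgeR, 147 in DESeq2, 1 without Egfr WT PSC replicate 1, 2 without Egfr WT PSC replicate 5, 1 without Egfr KO PSC replicate 1 and 1 without replicate 5 and 3 of the respective groups together. Without Egfr WT PSC replicate 4, 1 gene passed on the share. Estimates changed sign in 74 of 589 alternative values over 18 member genes and in 35 of 397 over 12 shares; a change of sign counted as a reversal only for a called value or one beyond its SE on both sides, and there was none. Hnrnph3 kept an unadjusted p under 0.05 in every gene alternative but the one with the stress score. No paired analysis was possible because the labels give no replicate numbers shared between the groups. The cause of these differences was not tested.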
